A study of Mus musculus with 8 samples.

Results

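Cells whose heavy chain carried the IgD constant gene made up 149 of 40603 paired cells in a receptor-sequencing study of sorted germinal-centre B cells from mouse spleen. A paired cell was a barcode with exactly 1 heavy-chain contig and exactly 1 kappa or lambda contig, a contig being an assembled receptor transcript. The heavy contig named IGHD in these 149 cells (122 WT, 27 KO), and IGHM in 37489 cells (17147 WT, 20342 KO), which are called IgM cells below. The study asked how Deltex-1, a ubiquitin ligase linked to Notch signalling, bears on germinal-centre B-cell homeostasis. It compared 4 libraries of Dtx1+/+ mice (WT) with 4 libraries of Dtx1-/- mice (KO), all from spleen on day 10 after immunization. The tables hold 4585 to 5712 paired cells a library. Cells were enriched with beads that bind peanut agglutinin and then sorted by flow cytometry. The labels do not name the immunogen, the sort gates, the age or number of mice, or the tissue in which the knockout acts. Of the clones with at least 2 cells, 88.4% in WT and 87.7% in KO held cells of 2 or more libraries of that genotype. The 4 libraries of a genotype therefore share clones and are not shown to be separate animals, and p-values over libraries measure only the spread between these libraries.

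Mature naive follicular B cells carry IgM and IgD together. Both come from 1 long transcript that starts at the same rearranged VDJ exon and is spliced to either constant region, so both chains of a cell have the same variable region. After activation, germinal-centre B cells lose most surface IgD, divide, and mutate their variable genes. A B cell with no mutation and no clonal relatives is therefore the usual picture of a naive cell, and IgD its usual mark. The IGHD constant gene lies at chr12:113407535-113416324 and IGHM at chr12:113418826-113422730 (GRCm38.p6). The IGHD label is what chose the cells and is described only. Levels of IGHD and IGHM messages, and genes other than the receptors, are outside these receptor tables, so co-expression of IgM and IgD could not be read. Of 1723 barcodes with 2 or more heavy contigs, only 1 held the same heavy CDR3 in more than 1 contig, so a rearranged heavy chain was listed with 1 constant gene almost everywhere.

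The heavy CDR3 sequences show how little the IgD-labelled cells shared with each other or with other cells. CDR3 is the junction of the V, D and J genes and serves as the fingerprint of a B-cell clone. All 149 cells had different heavy CDR3 sequences and fell in 149 clones, and no clone held more than 1 of them. A clone here is a set of cells of 1 genotype with the same heavy V and J genes, the same light V and J genes and the same heavy CDR3 length, joined at a nucleotide identity of at least 0.85. A further 7 cells, single by this rule, had the heavy V, J and CDR3 of cells with another light chain and are described below. By this rule the following 4 cells had a relative. Their CDR3 is printed beside that of a relative, 5′ to 3′, with the letters that differ in capitals.
IGHV1-69 with IGKV6-23, IgD cell of KO 1 and IgM cell of KO 2 alike: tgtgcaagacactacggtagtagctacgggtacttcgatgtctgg
IGHV1-80 with IGKV13-84, IgD cell of KO 1: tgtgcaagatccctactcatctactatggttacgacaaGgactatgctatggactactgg
IGHV1-80 with IGKV13-84, IgM cell of KO 1: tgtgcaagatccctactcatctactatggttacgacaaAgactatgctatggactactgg
IGHV1-4 with IGKV10-96, IgD cell of WT 1 and its IgM cells alike: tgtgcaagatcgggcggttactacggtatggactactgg
IGHV1-75 with IGKV6-15, IgD cell of WT 4: tgtgcaagagactacggtagTAGctactgg
IGHV1-75 with IGKV6-15, IgM cell of WT 3: tgtgcaagagactacggtagAGCctactgg

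The relatives by this rule were all IgM cells, 0 of them switched, and none of the cells in these 4 clones carried a mutation in IGHV. The IGHV1-69 cell had 1 IgM relative with the identical CDR3, and the IgD contig rested on 2 unique molecular identifiers (UMIs, which count captured transcripts) against 40 in the relative. The IGHV1-80 pair differed at 1 of 60 bases, with 8 UMIs in the IgD cell and 7 in the IgM cell. The IGHV1-4 clone was the largest with 14 cells. Its 13 IgM cells lay with the IgD cell over 4 libraries, all had the same heavy and light CDR3, and their heavy UMIs ran from 5 to 16 with a median of 9 against 6 in the IgD cell. The IGHV1-75 pair differed at 3 of 30 bases, so it was joined by the identity rule and not by an identical sequence.

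The KO libraries held fewer IgD-labelled cells than the WT libraries. The share of paired cells labelled IgD was 0.764, 0.429, 0.757 and 0.654% in the WT libraries, from 37, 20, 35 and 30 cells. It was 0.217, 0.0700, 0.179 and 0.0198% in the KO libraries, from 12, 4, 10 and 1 cells. Every WT library was above every KO library. The mean was 0.651% ± 0.156 in WT and 0.121% ± 0.0918 in KO (SD, n = 4 each), a ratio of 5.37, and an exact permutation test (two-sided, 70 ways to assign the libraries) gave p = 0.0286, the smallest it allows. A count of 3 cells is 0.0525 to 0.0654% of a library's paired cells, so the share in KO 4 is below that limit, and without KO 2 or KO 4 the exact permutation p was 0.0571. Shares and intervals cover counting error only.

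**Figure D1:**
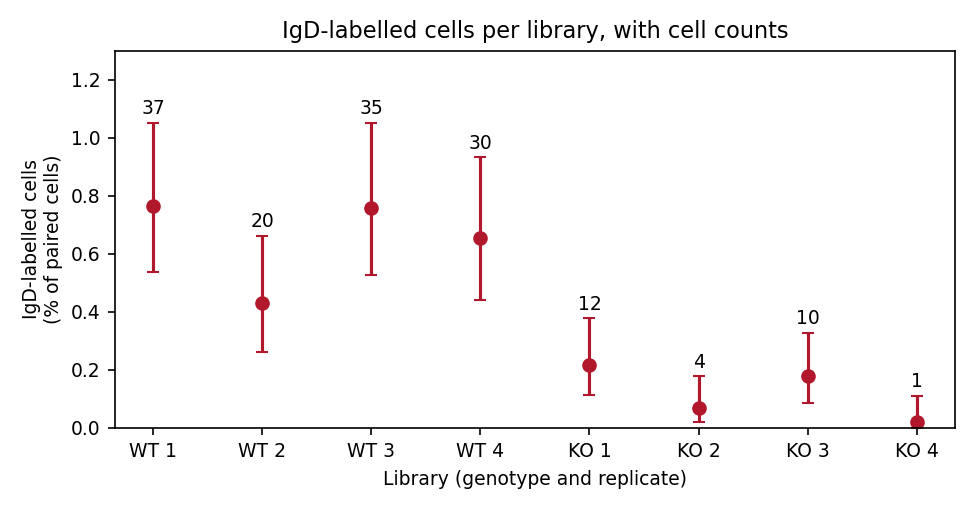
Share of paired cells with an IgD heavy chain (y axis, percent) in each of the 8 libraries (x axis, genotype and replicate). Points are shares, bars exact binomial 95% intervals, and the numbers above them cells; the WT libraries lie between 0.429 and 0.764% and the KO libraries between 0.0198 and 0.217%.

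The genotypes also differed in heavy-chain UMIs of IgM cells, with library medians of 23 to 27 (WT) and 39 to 43 (KO). The share of IgD-labelled cells was therefore also taken among cells with similar numbers of UMIs. Among cells with 3 to 15 heavy UMIs it was 1.90, 1.07, 2.10 and 1.71% in the WT libraries and 0.802, 0.216, 0.483 and 0% in the KO libraries. The mean was 1.70% ± 0.446 in WT and 0.375% ± 0.346 in KO (SD, n = 4 each), a ratio of 4.53 with an exact permutation p = 0.0286. In pooled cells the share with 3 to 5 heavy UMIs was 2.28% in WT and 0.528% in KO, with 6 to 10 it was 2.00 and 0.365%, and with 11 to 15 it was 1.16 and 0.331%. Cells with 1 or 2 heavy UMIs were an exception, with 2.37% in WT [1.36 to 3.82] and 2.07% in KO [0.9503 to 3.89], exact binomial 95% intervals. Such cells were 16 of the 122 WT cells labelled IgD (13.1%) and 9 of the 27 KO cells (33.3%). How much of the IgD label in such cells is free RNA was not tested.

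The IgD-labelled cells carried few receptor transcripts. The median of heavy UMIs in IgD-labelled cells was 7, 8, 7 and 7.5 in the WT libraries and 8, 4.5, 10 and 1 in the KO libraries. In IgM cells of the same libraries it was 23, 23, 24 and 27 in WT and 43, 41, 43 and 39 in KO. The IgD-labelled cells were lower in all 8 libraries, by a log2 difference of -2.48 ± 1.25 (SD over 8 libraries), a ratio of 5.59 between IgM and IgD-labelled cells, with an exact permutation p = 0.00781 and an adjusted p = 0.0195. This test swaps the 2 classes within each library, and p-values were adjusted with the Benjamini-Hochberg method over the 10 measures of its family. KO 4, with its 1 cell at 1 UMI, gave the widest gap, and with libraries of at least 5 IgD-labelled cells the difference was -1.90.

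Light chains showed a smaller gap. Median light UMIs in IgD-labelled cells were 31, 44, 37 and 33 in WT and 27, 31, 14 and 1 in KO libraries. Those of IgM cells were 62, 63, 66 and 68 in WT and 79, 76, 77 and 69 in KO. The log2 difference was -1.85 ± 1.82 over 8 libraries, lower in all 8 (exact permutation p = 0.00781, adjusted p = 0.0195). Light UMIs per heavy UMI had a median of 4.92 in IgD-labelled and 2.55 in IgM cells of WT, and of 3 and 1.75 in KO. At 6 to 10 heavy UMIs the median was 4.71 in both classes of WT, and 6.5 in IgD-labelled and 3.43 in IgM cells of KO, from 5 IgD-labelled cells. Among cells with 3 to 15 heavy UMIs the light UMIs of the classes differed by a log2 value of -0.02 ± 0.56 over 7 libraries (exact permutation, adjusted p = 0.906). At like heavy UMIs the light gap was thus within the spread between libraries.

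**Figure D2:**
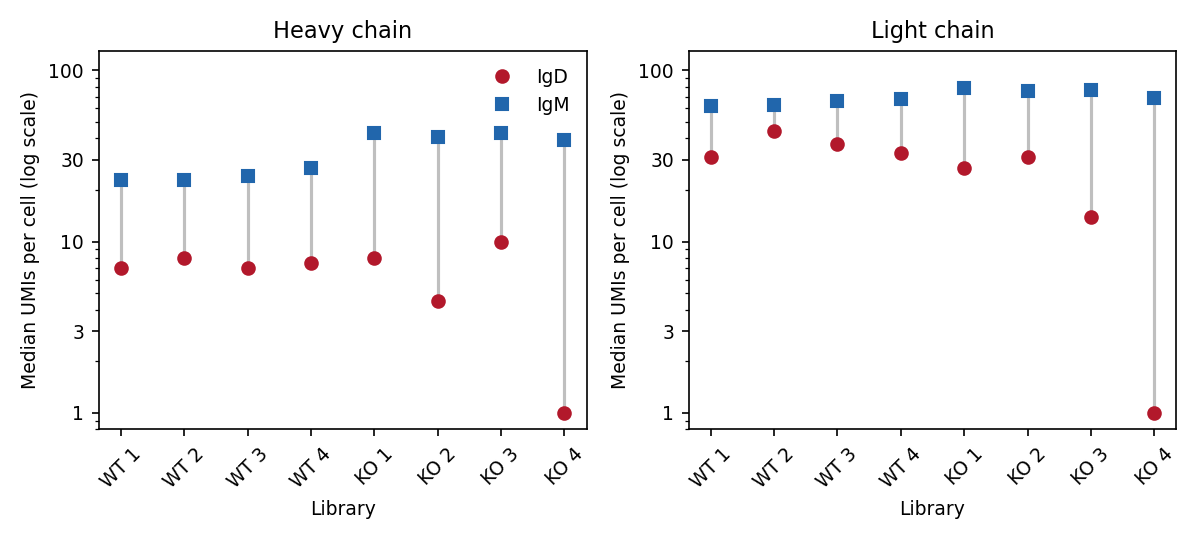
Median UMIs per cell (y axes, log scale) of IgD-labelled cells (circles) and IgM cells (squares) in each library, for the heavy chain (left) and the light chain (right). Grey lines join the classes of a library; the circle is the lower point in all 8 libraries for both chains.

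No IgD-labelled cell was rich in heavy-chain transcripts. Heavy UMIs ran from 1 to 35, with quartiles at 4 and 11. Over 40 heavy UMIs were found in 0 of 149 IgD-labelled cells, which allows a share of up to 2.01%, and in 27.0% of WT and 51.4% of KO IgM cells. The depth of sequencing behind each molecule was not lower in the IgD-labelled cells. The median of reads per heavy UMI was 76 against 65.5 in IgM cells of WT, and 61.1 against 51.2 in KO. Heavy contigs had a median length of 673 bases against 680.

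Nearly all IgD-labelled cells were single members of their clones, and most IgM cells were not. Single-cell clones held 120 of 122 WT cells (98.4% [94.2 to 99.8]) and 25 of 27 KO cells (92.6% [75.7 to 99.1]) labelled IgD. In IgM cells the share was 28.1% in WT and 32.9% in KO. By library the IgD-labelled share was 97.3, 100, 100 and 96.7% in WT and 83.3, 100, 100 and 100% in KO, against 25.7 to 31.6% and 32.0 to 34.9% in IgM cells, so the classes did not overlap. The difference was 66.6 ± 7.66 percentage points (SD), above 0 in 8 of 8 libraries (exact permutation p = 0.00781, adjusted p = 0.0195). Clones of at least 5 cells held 1 of 149 IgD-labelled cells, but 53.0% of WT and 42.03% of KO IgM cells. That difference was -47.2 ± 5.86 points, below 0 in 8 of 8 libraries (exact permutation p = 0.00781, adjusted p = 0.0195).

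IgM cells with few UMIs were single more often than other IgM cells, so the comparison was made at like UMIs. In WT cells with 3 to 5, 6 to 10 and 11 to 15 heavy UMIs, 23 of 23, 44 of 45 and 26 of 27 IgD-labelled cells were single, against 42.1, 35.8 and 33.7% of IgM cells. In KO cells of the same ranges 3 of 3, 4 of 5 and 5 of 5 IgD-labelled cells were single, against 57.9, 37.7 and 36.3% of IgM cells. With 1 or 2 UMIs, 16 of 16 WT and 8 of 9 KO cells labelled IgD were single, and 81.1% of WT and 91.8% of KO IgM cells were single too. Among cells with 3 to 15 UMIs the difference was 59.0 ± 7.13 points over 7 libraries, all above 0 (exact permutation p = 0.0156, adjusted p = 0.0391).

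**Figure D3:**
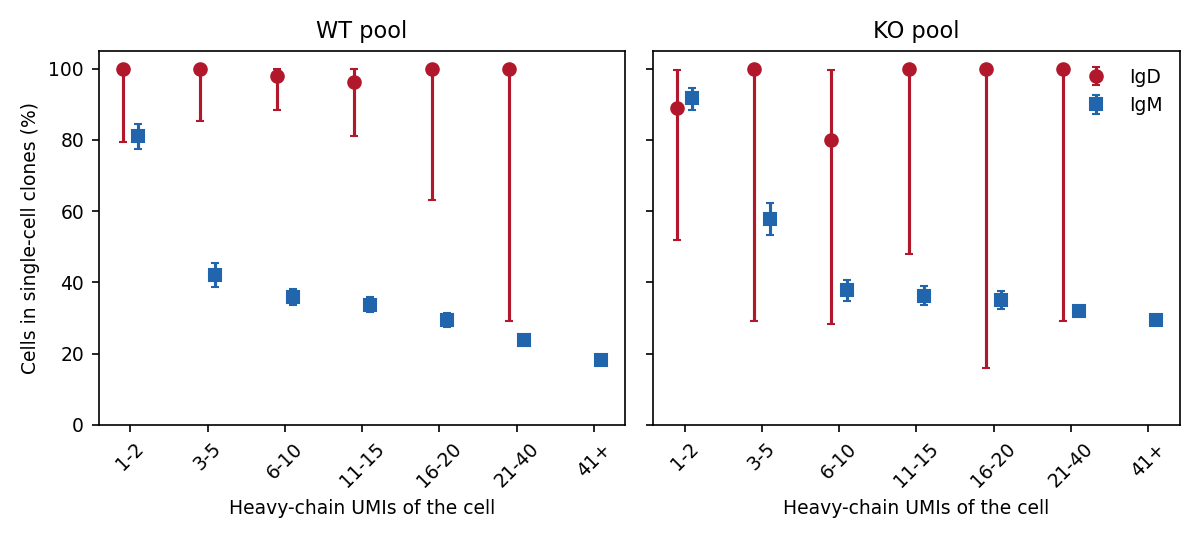
Share of cells in single-cell clones (y axis, percent) by the heavy UMIs of the cell (x axis), for IgD-labelled cells (circles) and IgM cells (squares), pooled over the 4 libraries of WT (left) and KO (right), with exact binomial 95% intervals. From 3 UMIs upward the IgD-labelled share is 80.0 to 100% and the IgM share at most 57.9%; no IgD-labelled cell has over 40 UMIs.

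The IgD-labelled cells were close to germline in IGHV. As germline served the V sequence that most clones of a gene shared across these data (frameworks 1 to 3 with the CDRs between them), and 147 of the 149 cells had such a gene. IGHV was unmutated in 119 of 121 WT cells (98.3% [94.2 to 99.8]) and 23 of 26 KO cells (88.5% [69.8 to 97.6]) labelled IgD. Among IgM cells it was unmutated in 69.96% of WT and 82.6% of KO cells. The mean frequency of mutated nucleotides in IgD-labelled cells was 0.0569, 0.140, 0 and 0% in the WT libraries and 0.116, 0 and 0.105% in KO 1 to KO 3. In IgM cells of WT libraries it was 0.347 to 0.375%, and in those of KO libraries 0.156 to 0.186%. The difference was -0.225 ± 0.123 points over 7 libraries, below 0 in all 7 (exact permutation p = 0.0156, adjusted p = 0.0260), KO 4 having no IgD-labelled cell with a germline. The share without mutation was 19.8 ± 11.4 points above that of IgM cells, with the same p-values by the exact permutation test. This excess was 28.1 ± 1.65 points in WT and 8.77 ± 8.28 in KO (SD, n = 4 and 3), with 1.15 in KO 1. In KO the pooled IgM share of 82.6% lay inside the interval of the IgD-labelled cells. With any 1 of WT 1 to WT 4, KO 2 or KO 3 left out, 6 libraries with a value remain. The adjusted p of the mutation frequency and of the share without mutation was then 0.0521 by the exact permutation test, with the direction kept. Fewer libraries also raise the smallest p that this test allows.

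The exceptions were few. An IGHV mutation was present in 5 IgD-labelled cells, 3 of which had 1 to 4 heavy UMIs, as did 41 of all 149 IgD-labelled cells. The others, both KO cells, had 17 and 31 heavy UMIs. With at least 5 heavy UMIs, 92 of 92 WT and 13 of 15 KO cells labelled IgD were unmutated. The sequences of the most mutated cell and of the most mutated cell with over 10 UMIs are given from framework 1 to framework 3, with the mutated bases in capitals.
IGHV1-55 of WT 2: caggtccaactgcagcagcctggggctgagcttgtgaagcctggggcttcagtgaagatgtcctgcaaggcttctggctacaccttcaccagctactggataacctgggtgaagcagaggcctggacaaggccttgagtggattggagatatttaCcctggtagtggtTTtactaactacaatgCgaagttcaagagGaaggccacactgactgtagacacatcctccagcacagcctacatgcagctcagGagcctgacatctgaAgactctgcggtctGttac
IGHV1-78 of KO 3: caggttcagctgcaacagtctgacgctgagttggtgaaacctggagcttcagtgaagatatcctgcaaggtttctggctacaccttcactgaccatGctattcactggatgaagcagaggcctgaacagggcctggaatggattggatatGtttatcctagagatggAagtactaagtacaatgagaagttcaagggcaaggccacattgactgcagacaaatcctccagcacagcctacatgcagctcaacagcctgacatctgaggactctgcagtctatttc

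Positions are counted from 1 at the first base of framework 1, with the germline base before and the cell's base after the position. The IGHV1-55 cell (gene at chr12:115208137-115208527, GRCm38.p6) had 8 changes, T156C, A169T, G170T, A185C, C198G, C252G, G267A and A281G, of which 3 lay in CDR2 and the rest in framework 3. Its heavy contig rested on 1 UMI and its lambda contig on 119. The other IGHV1-55 cell, of WT 1, had 6 changes on 2 heavy UMIs and 2 light UMIs, and its heavy chain was also found in other cells with another light chain. The IGHV1-78 cell (gene at chr12:115868773-115869066, GRCm38.p6) had 3 changes, A97G, A151G and T168A, on 17 heavy UMIs, with an unmutated light chain on 69 UMIs. An IGHV8-12 cell of KO 1 had 3 changes on 4 UMIs, and an IGHV1-19 cell of KO 1 had 1 change, T174C, on 31 UMIs.

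Kappa chains gave no called difference. The IGKV gene was unmutated in 107 of 112 WT cells and 21 of 27 KO cells labelled IgD (95.5 and 77.8%), against 78.4 and 88.1% of IgM cells. The mean IGKV mutation frequency of IgD-labelled minus IgM cells was -0.0397 ± 0.142 points over 8 libraries (exact permutation, adjusted p = 0.445). Of the 11 IgD-labelled cells with an IGKV mutation, 9 had 1 to 4 heavy UMIs. Both IgD-labelled cells with IGKV6-13 were KO cells and counted as mutated. IGKV6-13 was counted as mutated in 102 of 102 KO IgM cells with that gene, against 41 of 115 in WT, so in KO this gene adds to the frequency in either class.

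Some heavy chains were found with different light chains. When cells were joined by identical heavy CDR3, V and J genes with any light chain, 9 IgD-labelled cells shared a heavy chain with another cell. Of these, 7 were in single-cell clones by the rule with light chains, and 6 of those 7 had 1 or 2 heavy UMIs. The 9 cells were 4 of 122 WT cells (3.28% [0.9004 to 8.18]) and 5 of 27 KO cells (18.5% [6.30 to 38.1]) labelled IgD. Among unmutated IgM cells of single-cell clones the share was 7.01% in WT and 6.65% in KO. The value of these IgM cells lay inside the exact binomial 95% interval of the IgD-labelled cells in both genotypes, although the 9 cells were not limited to single-cell clones. Among all IgM cells the share was 64.4% in WT and 62.7% in KO, above both intervals.

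The heavy J genes were used in different proportions by IgD-labelled and IgM cells. J genes end the CDR3, and IGHJ1 (chr12:113429781-113429833) lies nearest to the D genes and IGHJ4 (chr12:113428514-113428567, GRCm38.p6) farthest from them. IGHJ1 was carried by 29.7, 20, 17.1 and 33.3% of IgD-labelled cells in the WT libraries and by 50, 25, 30 and 100% in KO 1 to KO 4. In IgM cells it was 15.4 to 16.4% in WT and 18.2 to 19.1% in KO. It was higher in the IgD-labelled cells of all 8 libraries, by 20.8 ± 26.4 points (exact permutation p = 0.00781, adjusted p = 0.0156 over the 4 J genes). The 100% is the only IgD-labelled cell of KO 4, and over libraries with at least 5 such cells the difference was 13.1 points. Pooled, IGHJ1 was in 31 of 122 WT cells labelled IgD (25.4% [17.96 to 34.1]) against 15.95% of IgM cells, and in 11 of 27 KO cells (40.7% [22.4 to 61.2]) against 18.7%.

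IGHJ4 went the other way. It was in 13.5, 25, 22.9 and 16.7% of IgD-labelled cells of the WT libraries and 25, 0, 20 and 0% of those of the KO libraries, against 25.2 to 25.5% and 26.0 to 28.4% of IgM cells. It was lower in 8 of 8 libraries, by -10.7 ± 10.9 points (exact permutation p = 0.00781, adjusted p = 0.0156), although by under 1 point in WT 2. The 0% values of KO 2 and KO 4 rest on 4 cells and 1 cell, and over libraries with at least 5 IgD-labelled cells the difference was -5.22 (exact permutation, adjusted p = 0.0625). Pooled, IGHJ4 was in 23 of 122 WT cells labelled IgD (18.9% [12.3 to 26.9]) against 25.3% of IgM cells. In KO it was in 5 of 27 cells (18.5% [6.30 to 38.1]) against 26.8%. The pooled IgM share thus lay inside the interval of the IgD-labelled cells in both genotypes. IGHJ3 was lower by -10.2 ± 10.1 points, in 6 of 8 libraries (exact permutation p = 0.0312, adjusted p = 0.0417). The IGHJ3 call held in 2 of 8 runs with 1 library left out (adjusted p up to 0.0833), and with at least 5 heavy UMIs the difference was -5.01 (exact permutation, adjusted p = 0.562). IGHJ2 gave 0.0937 ± 14.7 points (exact permutation, adjusted p = 0.977). Among cells with 3 to 15 heavy UMIs the differences were 12.2 points for IGHJ1, -12.9 for IGHJ3 and -11.8 for IGHJ4, each with an adjusted p = 0.0625 by the exact permutation test over 7 libraries.

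**Figure D4:**
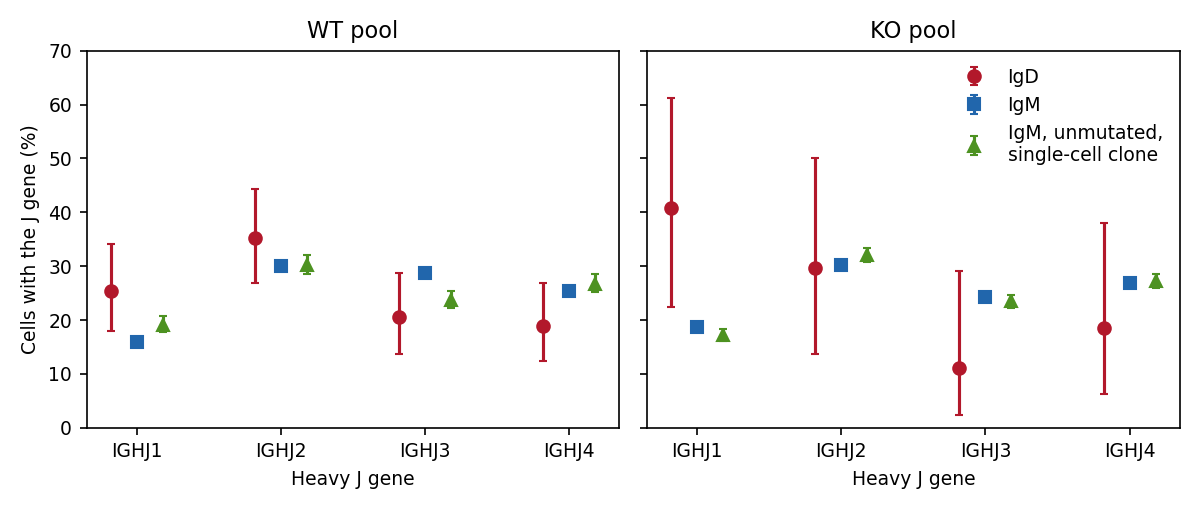
Share of cells carrying each heavy J gene (y axis, percent) among IgD-labelled cells (circles), IgM cells (squares) and unmutated IgM cells of single-cell clones (triangles), pooled over the 4 libraries of WT (left) and KO (right), with exact binomial 95% intervals. IGHJ1 stands at 25.4% of WT and 40.7% of KO IgD-labelled cells, above 15.95 and 18.7% in IgM cells.

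Against unmutated IgM cells of single-cell clones, which resemble naive cells in the features at hand, the picture was close but not the same. There were 7665 such cells (2796 WT, 4869 KO). They still had more heavy UMIs, by a log2 difference of -2.07 ± 1.40 for IgD-labelled minus such IgM cells, lower in 8 of 8 libraries (exact permutation, adjusted p = 0.0260). IGHJ4 was lower in the IgD-labelled cells by -11.7 ± 10.99 points in 8 of 8 libraries (exact permutation, adjusted p = 0.0312). This mean again includes the 0% of KO 2 and KO 4, from 4 cells and 1 cell. IGHJ1 was higher by 20.01 points in 6 of 8 (exact permutation, adjusted p = 0.0625). The IGHJ1 mean includes the 100% of KO 4, from 1 cell. Pooled in WT, IGHJ1 was in 25.4% [17.96 to 34.1] of IgD-labelled and 19.2% of such IgM cells, a value inside that interval. In KO it was in 40.7% [22.4 to 61.2] of IgD-labelled cells. The mean over the 8 libraries of such IgM cells was 18.1% ± 1.70 (SD), below the KO interval. IGHJ3 was at -7.36 points (exact permutation, adjusted p = 0.146). Lambda light chains were rarer in the IgD-labelled cells, by -5.10 ± 2.21 points in 8 of 8 libraries (exact permutation, adjusted p = 0.0260). With 3 to 15 heavy UMIs in both classes it was -5.59 ± 4.21 points, lower in 6 of 7 libraries and not called (exact permutation, adjusted p = 0.312). Lambda was carried by 9 of 122 WT IgD-labelled cells (7.38% [3.43 to 13.5]) and 0 of 27 KO cells (0% [0 to 12.8], 0 of 12, 4, 10 and 1 by library). It was carried by 12.4% of WT and 4.74% of KO unmutated single-clone IgM cells, and by 6.29 and 3.05% of all IgM cells. The unmutated single-clone value lay inside the interval of the IgD-labelled cells in both genotypes. At a share of 4.74%, a KO library with so few IgD-labelled cells was likely to hold 0 lambda cells, so its negative sign carries little weight. Against all IgM cells the lambda difference was -1.15 ± 2.58 points (exact permutation, adjusted p = 0.295).

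The heavy V repertoire of the IgD-labelled cells was broad. The 149 cells used 56 IGHV genes, 22 of them in 1 cell, and 56 light V genes in 142 different heavy and light V pairs, with at most 3 cells to a pair. The IGHV1 family, the largest of the mouse, held 101 cells, IGHV5 held 13, IGHV8 9, IGHV2 8, IGHV9 7, IGHV14 4, IGHV6 3 and IGHV10 2, and IGHV7 and IGHV15 had 1 cell each. IGHV1 made up 67.2% of WT and 70.4% of KO IgD-labelled cells and 66.3 and 62.7% of IgM cells. None of the 10 families was called (exact permutation, adjusted p of at least 0.312), and the smallest unadjusted p was 0.0547, for IGHV2 at -4.13 ± 4.97 points.

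Single IGHV genes stood apart in a few cases. Cells per gene were compared between IgD-labelled and IgM cells with edgeR's quasi-likelihood test over 48 IGHV genes, with library as a term. It called 3 genes at an adjusted p under 0.05, which is 6.25% of those tested, and 4 passed before adjustment. IGHV1-26 (chr12:114788372-114788665, GRCm38.p6) was the most used gene, in 14 IgD-labelled cells, 13 of them WT. Its share of IgD-labelled cells was 10.8, 10, 11.4 and 10% in WT 1 to WT 4, against 2.50, 2.66, 3.44 and 3.01% of IgM cells, so every WT library showed it, whereas KO 1, KO 2 and KO 4 had no such cell. Pooled it was 9.40% against 3.35%, with an edgeR log2 fold change of 1.60 ± 0.40 (SE, adjusted p = 0.0116).

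IGHV1-50 (chr12:115119748-115120041) was in 7 IgD-labelled cells, 1, 4 and 2 of them in WT 1, WT 3 and WT 4. That is 4.70% [1.91 to 9.44] of IgD-labelled cells against 0.827% of IgM cells, with an edgeR log2 fold change of 2.71 ± 0.65 (SE, adjusted p = 0.00744). IGHV1-62-2 was in 0 of 149 IgD-labelled cells and in 1073 IgM cells (2.86%), at least 1.42-fold lower against a floor of 3 cells over all libraries (edgeR adjusted p = 0.0160). Of unmutated IgM cells in single-cell clones 0.913% carried IGHV1-62-2, so it was rarer there too, and 4.47% carried IGHV1-26 and 1.29% IGHV1-50. These shares pool both genotypes. WT cells were 122 of 149 IgD-labelled, 17147 of 37489 IgM and 2796 of 7665 unmutated single-clone IgM cells. Within WT, IGHV1-26 was in 10.7% of IgD-labelled, 2.90% of IgM and 5.33% of unmutated single-clone cells, and IGHV1-50 in 5.74, 0.653 and 1.43%. In KO the values were 3.70, 3.73 and 3.98%, and 0, 0.973 and 1.21%. Against the unmutated single-clone cells 0 genes were called by edgeR, with 6 passing before adjustment. With DESeq2 in place of edgeR 0 genes were called, with 2 passing before adjustment, and without WT 3 edgeR called 0, with 5 passing before adjustment. Without WT 1 edgeR called 1 gene. TMM factors, which here rest on columns of 1 to 37 IgD-labelled cells, moved the median log2 change of all genes by -1.78 and turned IGHV1-26 to -0.23, which is still above that shift, while IGHV1-50 was at 0.85.

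The other frequently used genes were near their share in IgM cells or not called. Shares of these genes pool both genotypes unless a genotype is named. IGHV1-19, IGHV1-55 and IGHV8-8 were each in 7 IgD-labelled cells (4.70%), against 1.45, 4.99 and 5.59% of IgM cells. IGHV1-81 and IGHV9-3 were in 6 each (4.03%), against 6.42 and 4.89%. Within WT, IGHV1-81 was in 3.28% of IgD-labelled against 7.54% of IgM cells, and within KO in 7.41 against 5.47%. IGHV1-9 was in 5 (3.36%, against 5.80%), and IGHV1-52 and IGHV1-53 in 4 each (2.68%, against 1.20 and 3.52%). The edgeR adjusted p of these 8 genes was 0.145 or higher, the lowest being that of IGHV1-19, which was called only without WT 4 (adjusted p = 0.0414). IGHV11-2 and IGHV12-3, typical of B-1 cells, were in 0 of 149 IgD-labelled cells, which allows up to 2.01%, and in 38 and 362 IgM cells (0.101 and 0.966%).

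**Figure D5:**
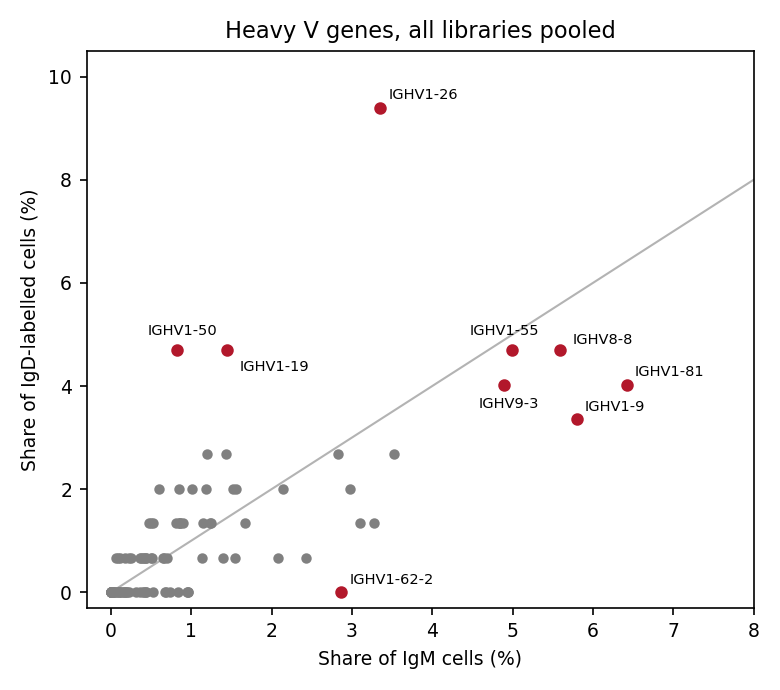
Share of IgD-labelled cells (y axis, percent) against share of IgM cells (x axis, percent) for each heavy V gene, all 8 libraries pooled. Of the pooled cells, 122 of 149 IgD-labelled but 17147 of 37489 IgM cells are WT. The line marks equal shares. Red points are genes in at least 5 IgD-labelled cells or called by edgeR; IGHV1-26 (9.40 against 3.35%) and IGHV1-50 (4.70 against 0.827%) lie above the line and IGHV1-62-2 lies at 0.

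The cells that share IGHV1-26 were not relatives. They paired it with all 4 J genes, and IGHJ1 accounted for 5 of the 14. The heavy CDR3 of these 5 is shown with the letters between the shared V start and the shared J end in capitals. This stretch holds the D-gene part and the bases around it, which can include bases of the V or J gene.
IGHV1-26, IGHJ1, IGKV3-2 in WT 1: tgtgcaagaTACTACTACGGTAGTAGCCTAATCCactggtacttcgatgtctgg
IGHV1-26, IGHJ1, IGKV15-103 in WT 1: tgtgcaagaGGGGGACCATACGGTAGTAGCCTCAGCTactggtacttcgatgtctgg
IGHV1-26, IGHJ1, IGKV8-21 in WT 2: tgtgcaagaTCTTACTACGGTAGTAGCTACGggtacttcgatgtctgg
IGHV1-26, IGHJ1, IGKV4-61 in WT 3: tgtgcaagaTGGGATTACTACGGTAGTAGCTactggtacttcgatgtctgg
IGHV1-26, IGHJ1, IGKV1-117 in WT 4: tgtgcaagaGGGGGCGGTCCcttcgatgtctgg

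Each of the 5 has its own junction and its own light V gene. IGHV1-26 with IGHJ1 made up 3.36% of IgD-labelled cells against 0.779% of IgM cells (4.10 against 0.898% within WT), a pair singled out after its values were seen. The word TACTACGGTAGT, read on the sense strand of the CDR3 and held by 97.5% of IgM cells whose D gene is named IGHD1-1, was in 5 of the 14 IGHV1-26 cells and in 24 of all 149 IgD-labelled cells (16.1% [10.6 to 23.0]). It was in 16.9% of IgM cells, a share inside that interval. A D gene was named in 18.03% of WT and 18.5% of KO IgD-labelled cells and in 22.4 and 23.5% of IgM cells. IGHD1-1 led with 10 cells, followed by IGHD2-4 with 5 and IGHD2-7 with 4.

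The CDR3 itself was of ordinary length. Mean heavy CDR3 length in IgD-labelled cells was 14.2, 14.1, 13.9 and 13.4 amino acids in WT and 15.2, 13.0, 14.3 and 13.0 in KO libraries, with 14.3 in IgM cells of each WT library and 14.4 to 14.5 in those of KO. The difference was -0.496 ± 0.757 amino acids (exact permutation, adjusted p = 0.146). The net charge of the CDR3, counting K and R as positive and D and E as negative, differed by -0.217 ± 0.299 (exact permutation, adjusted p = 0.145). With at least 5 heavy UMIs the charge was lower in IgD-labelled cells by -0.350, in 6 of 7 libraries (exact permutation, adjusted p = 0.0446). By the same test it was not called with 3 to 15 heavy UMIs (-0.395, adjusted p = 0.179). Nor was it called against unmutated IgM cells of single-cell clones (-0.0723, adjusted p = 0.634), or with both restrictions (-0.298, adjusted p = 0.781).

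The light V genes in most IgD-labelled cells are described without a test. IGKV1-117 was in 12 cells, all WT (8.05% [4.23 to 13.6] of all IgD-labelled cells against 5.02% of IgM cells). Within WT its share was 9.84% of IgD-labelled cells against 6.51% of IgM cells. IGKV10-96 was in 11 cells (7.38 against 4.17%, both genotypes pooled). Within WT its share was 8.20% of IgD-labelled against 3.57% of IgM cells, and within KO 3.70 against 4.68%. IGKV6-15 was in 8 cells (5.37 against 3.41%) and IGLV1, the main lambda V gene, in 7, all WT (4.70 against 3.12%). Within WT, IGLV1 was in 5.74% of IgD-labelled cells, 4.23% of IgM cells and 8.76% of unmutated IgM cells of single-cell clones. IGKV1-110 and IGKV14-111 were in 5 each (3.36%, against 4.09 and 3.30%).

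The kappa J genes were singled out after their values were seen and were not tested. IGKJ1 was carried by 48.5, 47.4, 39.4 and 50% of kappa IgD-labelled cells in WT 1 to WT 4, against 26.9, 26.8, 27.5 and 27.9% of kappa IgM cells, so the WT libraries did not overlap between classes. In KO 1 to KO 3 it was 16.7, 25 and 20% against 26.0, 26.4 and 26.4%. The cells behind the KO values are 2 of 12, 1 of 4 and 2 of 10.

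Between the genotypes, no difference was called among the IgD-labelled cells themselves. None of 6 measures passed the exact permutation test (adjusted p of 0.343 to 1). Median heavy UMIs were 7.38 ± 0.479 in WT and 5.88 ± 3.97 in KO libraries, and median light UMIs 36.2 ± 5.74 and 18.2 ± 13.6 (SD, n = 4 each). The share in single-cell clones was 98.5 ± 1.76% in WT and 95.8 ± 8.33% in KO. The KO means rest on 12, 4, 10 and 1 cells, so only large differences could have been seen.

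IGHD contigs also occurred outside paired cells. In all, 200 of 48952 heavy contigs were IGHD (160 WT, 40 KO). Barcodes with a heavy but no light contig held 25 of them among 1667 barcodes, 2.24% [1.33 to 3.52] in WT and 0.811% [0.327 to 1.66] in KO, against 0.652% [0.542 to 0.778] and 0.123% [0.0813 to 0.179] of paired cells. Barcodes with 1 heavy and 2 or more light contigs held 9 among 3236 (0.278%). Barcodes with 2 or more heavy contigs, left out as possible doublets, held 17 among 1723, and the partner heavy chain was IGHM in 16 and switched in 1. In 15 of these 17 the IGHD contig had fewer UMIs than its partner, with a median of 7 against 23. The medians over paired cells of both genotypes together were 7 for IgD-labelled and 32 for IgM cells, the latter being 24 in WT and 42 in KO. None of the 17 had the same CDR3 in both contigs. Of the 39615 distinct barcodes of paired cells 978 occurred in 2 or more libraries, among them those of 9 IgD-labelled cells, and none of the 9 had the same heavy CDR3 in the other library.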

How the data were processed

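Receptor contigs of 8 libraries (4 WT, 4 KO) were read from the deposited tables, which, per the file headers, give a read count and a UMI count per contig as whole numbers, without normalization. Per the submitters' processing notes the authors used Cell Ranger, R 4.3.1 and the build mm10, with no version of Cell Ranger stated there. A library held 11666 to 14732 contigs, 754954 to 1155339 UMIs and 4585 to 5712 paired cells, so the number of cells limits precision. Intervals are exact binomial (Clopper-Pearson, 95%) and cover counting error only. All 205 gene names matched a RefSeq table of GRCm38.p6, which gave the coordinates, and CDR3 and V sequences are those of the contigs.

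The members, lists, tests and alternatives were chosen with earlier results of these data known. Library values were compared by exact two-sided permutation (SciPy 1.17.1), over 70 assignments between genotypes or by swapping classes within a library, with Benjamini-Hochberg adjustment and calls at an adjusted p under 0.05. Germlines needed 20 clones of a V gene. IGHV genes in at least 200 cells were tested with edgeR 4.0.16 in R 4.3.3 on counts of cells, library size being the cells of the class, with DESeq2 1.42.0 as an alternative. On simulated counts of 48 genes for this comparison, 71.2% of 8-fold and 6.25% of 4-fold changes were recovered. A mean of 0.4 unchanged genes was called per simulated draw. The simulation drew from 1 pooled IgM profile without extra spread between libraries, so it is a favourable setting. Named are the 10 IGHV and 6 light V genes in most IgD-labelled cells, the called genes, all heavy J genes and IGHV families, IGHV11-2 and IGHV12-3, and the 5 most mutated cells. The D-gene word, IGKV6-13, IGKJ1 and IGHV1-26 with IGHJ1 were looked at after values were seen. Tables used Python 3.11.15, pandas 2.3.3, NumPy 2.4.6 and matplotlib 3.10.9. No doublet caller was run, and barcodes with 2 or more heavy chains were left out. Alternatives were other UMI ranges, comparison cells, clone and germline rules, libraries left out, normalizations and filters.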

Additional observations from a re-analysis of the deposited data

Results flagged for a closer look

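Of 28 groups of 4 libraries looked at, 4 held a library far from the other 3, where chance gives about 1 in 20 groups of continuous values. These values rest on 1 to 37 cells a library, so 1 cell can set a library apart. The mean IGKV mutation frequency of IgD-labelled cells was 0.274% in WT 2, against at most 0.0434% in the other WT libraries, and 0.344% in KO 1, against at most 0.0388% in the other KO libraries. Both IgD-labelled cells with IGKV6-13 were in KO 1, and that gene was counted as mutated in 102 of 102 KO IgM cells carrying it. Its part in the KO 1 value was not tested. The share of IgD-labelled cells in clones of at least 5 cells was 2.70% in WT 1, which is the 1 cell of the IGHV1-4 clone, and 0 in the other WT libraries. The share in single-cell clones was 83.3% in KO 1, from 12 cells, and 100% in the other KO libraries.

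The gap between IgD-labelled and IgM cells differed between genotypes in 3 measures, each with an exact permutation p = 0.0286. For log2 median heavy UMIs, KO minus WT of the gap was -1.53 (gaps of -3.25 in KO and -1.72 in WT). With at least 5 heavy UMIs it was 0.042. For the IGHV mutation frequency it was 0.205 points, and for the share in single-cell clones -7.49 points. With 1 library left out these calls held in 3, 1 and 3 of 8 runs (exact permutation, adjusted p up to 0.15, 0.15 and 0.314), and without KO 1 the gap in single-cell clones was -2.65. The library values of IgM cells themselves did not overlap between the genotypes in any of the 3 measures, and their part in these differences was not tested.

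IGHD contigs outside the paired cells were 25 with no light chain, 9 with 2 or more light chains and 17 with a further heavy chain.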

How the results depend on the processing

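The lower share of IgD-labelled cells in KO, and the lower UMIs, lower IGHV mutation and larger share in single-cell clones of IgD-labelled against all IgM cells, kept their direction under every alternative run for them. Across libraries left out in turn, the KO minus WT share ranged from -0.604 to -0.492 points, the log2 heavy UMI difference from -2.62 to -2.08 and the light one from -2.04 to -1.24. IGHV mutation ranged from -0.251 to -0.202 points, the share without mutation from 18.2 to 22.9, single-cell clones from 65.6 to 69.2 and clones of at least 5 cells from -48.1 to -46.0. CDR3 length ranged from -0.669 (called without KO 1, adjusted p = 0.0312) to -0.352, IGHJ1 from 12.1 to 23.6, IGHJ2 from -2.70 to 4.42, IGHJ3 from -11.9 to -8.20 and IGHJ4 from -12.2 to -8.19.

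With libraries of at least 5 IgD-labelled cells, 6 remain, the smallest adjusted p by exact permutation was 0.0521, and every call between the classes ended. Fewer libraries raise the smallest p that this test allows, so the end of these calls cannot be told from lost resolution. The values were -1.90 and -1.23 for heavy and light UMIs, -0.233 and 20.2 for IGHV mutation and the share without it, 66.2 and -48.7 for the clone shares, 13.1, -9.77 and -5.22 for IGHJ1, IGHJ3 and IGHJ4, and -0.870 for IGHV14. With at least 5 heavy UMIs they were -0.350 for charge (called) and 14.7, -0.935, -5.01 and -8.78 for IGHJ1 to IGHJ4. With 3 to 15 UMIs they were 0.0595 for CDR3 length, 12.2, -12.9 and -11.8 for IGHJ1, IGHJ3 and IGHJ4, -2.26 for IGHV1 and 0.162 for IGHV7. Each clone counted 1 time gave -0.0136 for IGHJ2 and -8.23 for IGHJ3. Unmutated IgM cells of single-cell clones as comparison gave -5.10 for lambda (called), 20.01, -0.974 and -7.36 for IGHJ1 to IGHJ3, -0.577 for IGHV5 and -0.658 for IGHV6. The same with 3 to 15 UMIs, chosen after seeing the data, gave 0.0938 for CDR3 length, 11.4, -11.4 and -11.97 for IGHJ1, IGHJ3 and IGHJ4, and 0.102 for IGHV7. Leaving out 1 library turned the sign of families IGHV5 (-0.439 to 2.18), IGHV15 (-0.243 to 0.283), IGHV6 (-0.160 to 1.03) and IGHV14 (-1.28 to 2.31). The cause of these changes was not tested.

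KO minus WT within IgD-labelled cells changed sign in 4 of 6 measures and was not called in any run. IGHV mutation (0.0033 to 0.0752) and the share without it (-11.4 to -3.07) kept their sign. With at least 5 UMIs it was 7.08 heavy and 14.3 light UMIs and 0.347 amino acids, and with libraries of at least 5 cells 1.62 heavy UMIs and 0.827 amino acids. With libraries left out, heavy UMIs ranged from -2.88 to 0.125, CDR3 length from -0.473 to 0.249 and single-cell clones from -4.05 to 1.51. The differences of gaps were 0.042 for heavy UMIs with at least 5 UMIs, and -0.549, 0.241 and -12.5 with libraries of at least 5 cells. With libraries left out they ranged from -1.92 to -0.856 for heavy UMIs, 0.186 to 0.241 for IGHV mutation and -9.18 to -2.65 for single-cell clones.

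Equal replicate numbers do not pair the libraries: their deviations in IgM heavy V use correlated at -0.0992, 0.0239, -0.130 and 0.163 over 97 genes. A replicate block gave -0.530 for the share (exact permutation p = 0.125, the smallest 4 pairs allow), -1.53, 0.188 and -7.49 for the differences of gaps, and ended these calls.

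The 3 called IGHV genes became 0 with DESeq2, 1 with each clone counted 1 time, 1 (IGHV1-50) with 3 to 15 UMIs and 0 with unmutated single-clone IgM cells. They became 25, all lower, with TMM factors, which rest on columns of 1 to 37 cells and moved the median log2 change by -1.78. With libraries left out 0 to 4 were called. Signs turned for IGHV1-26 (-0.23), IGHV1-19 (-0.081), IGHV8-8 (-1.93) and IGHV1-52 (-0.60) with TMM, of which IGHV1-26, IGHV1-19 and IGHV1-52 stayed above that shift. Signs turned for IGHV8-8 with DESeq2 (-0.14), with each clone counted 1 time (-0.071), with the unmutated cells (-0.19) and with a library left out (-0.54 to 0.17). They also turned for IGHV1-81 (0.43), IGHV9-3 (0.39) and IGHV1-52 (-0.29) with 3 to 15 UMIs, for IGHV1-55 (0.31), IGHV1-9 (0.14) and IGHV1-53 (0.28) with the unmutated cells and for IGHV1-53 without 1 library (-0.87 to 0.11). The count of cells, 27 in KO, limits all values that rest on KO libraries.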
